A study of Mus musculus with 12 samples.

Results

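The 10 genes Ccl2, Ccl7, Cxcl1, Cxcl5, Cxcl12, Il6, Il33, Csf1, Lif and Ptgs2 encode factors by which fibroblasts call in and instruct immune cells, and they were followed across soft and stiff, elastic and viscoelastic gels. They were taken by name from the 33246 genes of the deposited count table, and all 10 were among the 14542 genes with enough counts to be tested. Primary fibroblasts from the ears of C57BL/6 mice of both sexes, 1 month old, expanded in serum-containing medium to passage 2, were kept for 48 h on alginate gels coupled to the adhesive RGD peptide. Of 12 sequenced samples, 3 belonged to each of 4 groups, labelled 2 kPa Elastic, 20 kPa Elastic, 2 kPa Viscoelastic and 20 kPa Viscoelastic, whose mRNA was captured by its poly(A) tail. Elastic gels were crosslinked covalently and hold a load, whereas viscoelastic gels were crosslinked ionically and relax it slowly. The crosslinker chemistry therefore differs wherever the relaxation differs. Within each gel type the stiffer gels were made with more crosslinker, so stiffness and crosslinker concentration cannot be told apart. The study describes its samples as biological replicates, but the labels do not say whether these came from separate animals or cultures, so the p-values may measure technical spread alone. The question is how far the response to a relaxing gel differs between soft and stiff gels.

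Chemokines are small secreted proteins that guide migrating leukocytes. Ccl2 and Ccl7 attract monocytes through the receptor Ccr2, Cxcl1 and Cxcl5 attract neutrophils through Cxcr2, and Cxcl12 retains Cxcr4-bearing cells in their niche. Il6 and Lif are cytokines that share the signalling receptor subunit Il6st (gp130), Il33 is an alarmin stored in the nucleus and sensed by Il1rl1, Csf1 sustains macrophages, and Ptgs2 (cyclooxygenase-2) makes the precursor of the prostaglandins. Many of these genes are classical targets of the transcription factor NF-kappaB, and several of their mRNAs are short-lived through AU-rich stretches behind the coding sequence.

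The sequences upstream of the RNA start were read because several of these genes are known NF-kappaB targets. RefSeq promoters (GRCm38.p6, the mm10 build) were found for 7 of the 10 genes, with 2 for Il33. Within the 250 bases before the start, the NF-kappaB consensus, searched by its usual degenerate form on both strands, matched in Il6, Cxcl1, Csf1 and Lif, against 7.25% of all 32851 promoters of the same length. Cxcl12, Il33 and Ptgs2 had no match in this window, which says only that these letters were not found there. The 4 matching windows are given 5′ to 3′ on the strand of the gene, with the matched bases in capitals. They lie at chr5:30012864-30013113 (+) for Il6, chr5:90890995-90891244 (+) for Cxcl1, chr3:107760470-107760719 (-) for Csf1 and chr11:4257318-4257567 (+) for Lif.
Il6: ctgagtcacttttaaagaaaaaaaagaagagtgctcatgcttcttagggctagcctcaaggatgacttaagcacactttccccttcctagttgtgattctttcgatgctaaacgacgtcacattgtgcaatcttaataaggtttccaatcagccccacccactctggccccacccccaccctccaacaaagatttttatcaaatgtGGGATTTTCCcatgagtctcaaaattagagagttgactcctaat
Cxcl1: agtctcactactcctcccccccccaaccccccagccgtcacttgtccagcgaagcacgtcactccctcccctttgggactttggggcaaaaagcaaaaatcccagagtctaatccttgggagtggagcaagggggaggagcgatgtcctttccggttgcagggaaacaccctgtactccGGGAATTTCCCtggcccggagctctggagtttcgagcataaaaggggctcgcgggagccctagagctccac
Csf1: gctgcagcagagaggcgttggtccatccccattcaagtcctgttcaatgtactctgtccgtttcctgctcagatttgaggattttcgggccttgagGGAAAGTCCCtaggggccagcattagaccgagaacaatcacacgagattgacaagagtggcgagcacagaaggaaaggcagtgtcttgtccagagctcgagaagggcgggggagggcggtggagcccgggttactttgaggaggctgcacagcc
Lif: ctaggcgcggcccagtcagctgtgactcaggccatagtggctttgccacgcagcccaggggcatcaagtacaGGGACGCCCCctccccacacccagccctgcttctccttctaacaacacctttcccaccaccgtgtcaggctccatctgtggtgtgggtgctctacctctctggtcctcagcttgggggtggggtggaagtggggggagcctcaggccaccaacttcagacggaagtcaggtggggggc
The Il6 match GGGATTTTCC spanned bases 44 to 35 before the start. In Cxcl1, 2 overlapping matches made up a stretch from 71 to 61 bases before it. Those of Csf1 (154 to 145) and Lif (178 to 169) lay farther upstream. The AP-1 motif TGANTCA was found in Il6 and Lif (6.75% of all promoters) and the cAMP response motif TGACGT in Il6 and Cxcl1 (6.47%), neither overlapping the NF-kappaB match. TATAAA (12.4% of promoters) and the TEAD motif GGAATG (12.6%) occurred in the 2 Il33 windows, and the CArG box (1.47%) in no window. No sequence is given for Ccl2, Ccl7 and Cxcl5.

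None of the 10 genes was too low to be tested, and Il33 was the lowest. Its counts ran from 63 to 144 per sample with a mean of 95.9, below the 178 counts at which counting noise equals the typical spread between replicates, so its counting error alone was 10.2%. Lif averaged 371 counts per sample and Il6 582, with counting errors of 5.19% and 4.15%. On 2-kPa viscoelastic gels alone Lif averaged 172 counts (155 to 199), also below 178. The means of the other 7 ran from 669 for Ccl2 to 20570 for Cxcl12. Total counts per sample were 36626221 to 43612804, and the 10 genes together took 0.132% to 0.212% of them. Within a gene, levels are given as CPM, the counts scaled to the TMM-normalized size of each library. Between genes, levels are compared only after division by exon length (FPKM computed here from the annotated exons). By this measure Ptgs2 stood at 71.7 to 132 FPKM over the group means, Cxcl5 at 56.6 to 120, Csf1 at 56.9 to 95.6 and Cxcl12 at 55.1 to 68.0. Ccl2, Ccl7 and Cxcl1 lay between 11.3 and 26.7 FPKM, Il6 between 3.04 and 7.90, Lif between 0.941 and 2.99, and Il33 between 0.653 and 0.951. Thus a chemokine of neutrophils, the niche chemokine Cxcl12, the macrophage growth factor and cyclooxygenase-2 were the abundant transcripts, and the cytokines Il6, Lif and Il33 were scarce.

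**Figure D1:**
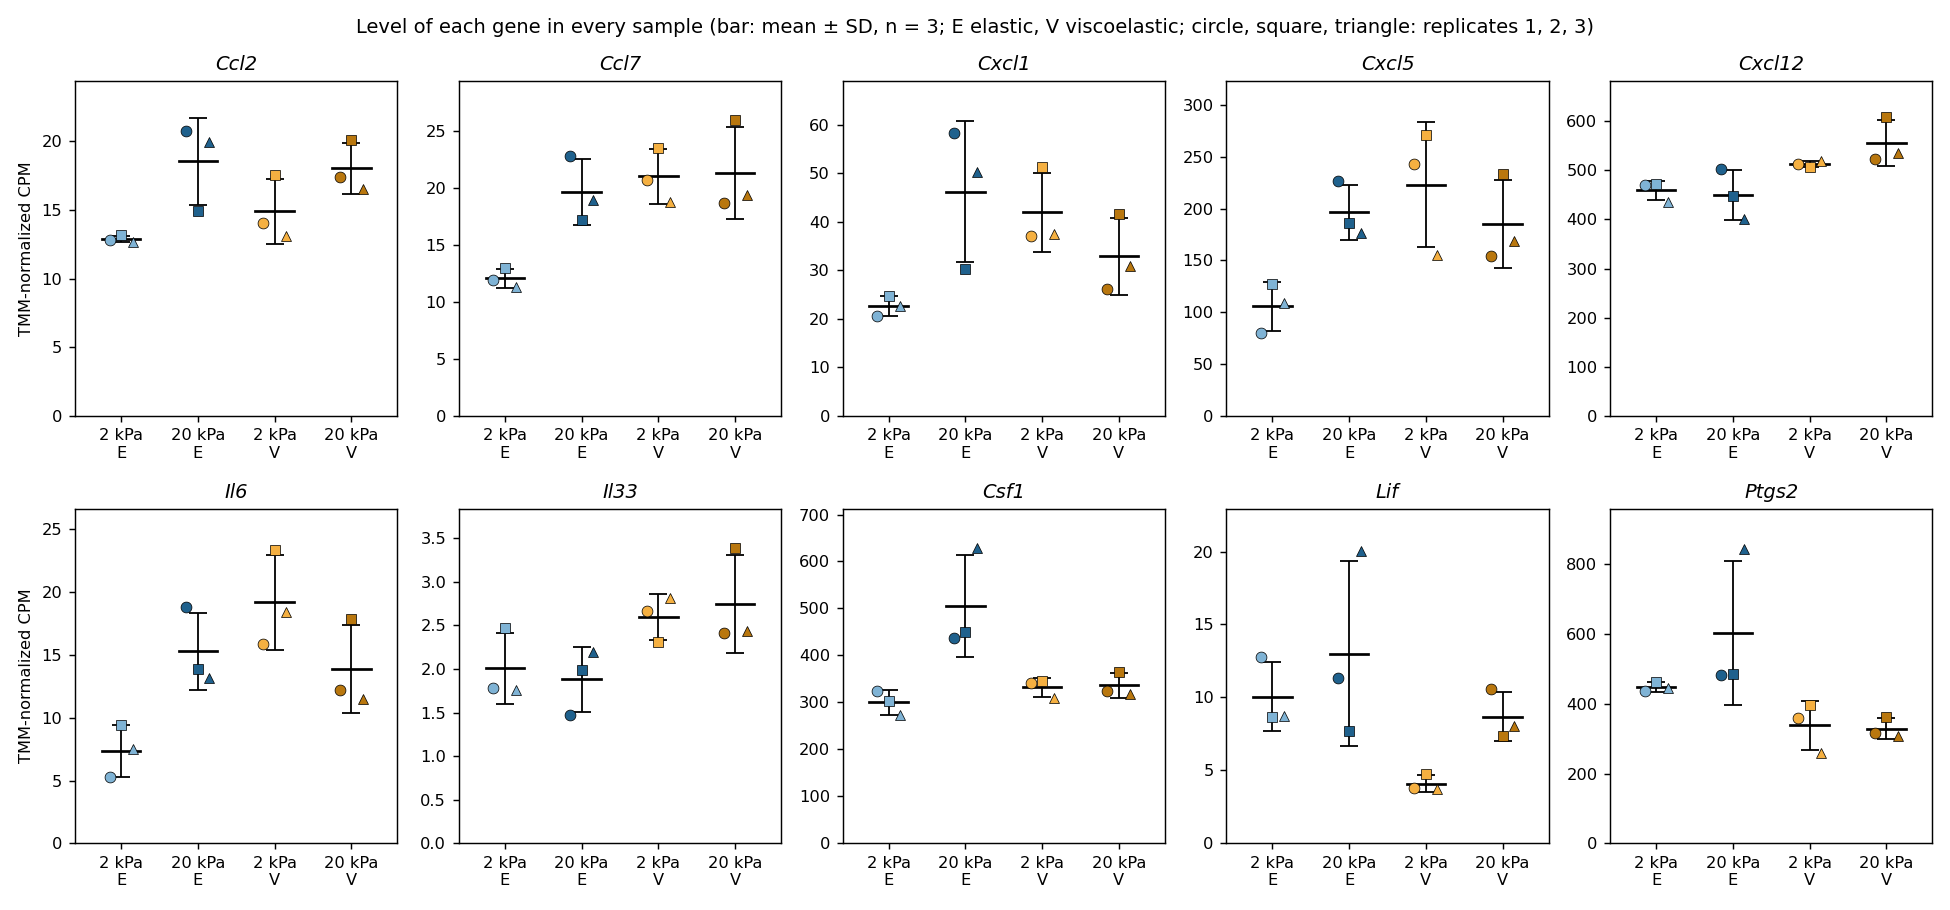
Each panel plots the level of a gene (CPM, linear axis from 0) in the 12 samples, with circles, squares and triangles for replicates 1, 2 and 3 and bars for the mean ± SD of 3 samples. Il6, Ccl7, Cxcl1 and Cxcl5 were lowest on 2-kPa elastic gels (Il6 mean 7.38 CPM), Lif was lowest on 2-kPa viscoelastic gels (4.10 CPM), and replicate 3 of the 20-kPa elastic gels stood above the others for Csf1, Lif and Ptgs2.

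Across the 4 groups 9 of the 10 genes differed somewhere (edgeR quasi-likelihood test, adjusted p under 0.05), where 44.7% of all tested genes did. The exception was Il33, with an adjusted p of 0.0622. On 2-kPa gels, viscoelasticity went with higher Ccl7, Cxcl1, Cxcl5 and Il6 and with lower Lif, so 5 of 10 genes were called (4 higher, 1 lower) against 19.9% of all genes (8.77% higher, 11.1% lower). The samples of the compared groups did not overlap for 7 of 10 genes, against 36.3% of all genes. At 20 kPa, 4 of 10 were called against 33.5% of all genes, a share near the background. Cxcl12 and Il33 were higher and Csf1 and Ptgs2 lower there (17.4% and 16.1% of all genes), and 4 of 10 did not overlap, against 49.9%. From 2 to 20 kPa on elastic gels, 6 of 10 genes were called, all higher, while 14.0% of all genes were called and 6.81% were called higher. Here 7 of 10 did not overlap, against 35.6% of all genes. The same step on viscoelastic gels gave 0 of 10 calls in edgeR, with 2.28% of all genes called. At an unadjusted p under 0.05 there were 3 (Ccl2, Il6 and Lif), DESeq2 called 1 (Lif), and 2 genes (Cxcl12 and Lif) did not overlap, against 22.3% of all genes.

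The median log2 fold change of the 10 genes was 0.61 for the stiffness step on elastic gels and 0.02 for that on viscoelastic gels, where the median of all genes was −0.01 and 0.01. For viscoelastic against elastic gels it was 0.29 at 2 kPa and −0.11 at 20 kPa, with 0.00 and 0.02 over all genes. Averaged over both stiffnesses, viscoelasticity gave 8 calls of 10 (40.0% of all genes), with Ccl7, Cxcl5, Cxcl12, Il6 and Il33 higher and Csf1, Lif and Ptgs2 lower. Averaged over both gel types, stiffness gave 4 calls, all higher (Ccl2, Ccl7, Csf1 and Lif). Of all 14542 genes 10.1% were called in either direction, with 876 genes higher. The mean stiffness call was lost for Ccl7 without replicate 1 or 3 of the 2-kPa elastic or replicate 3 of the 2-kPa viscoelastic gels (0.33 to 0.36, adjusted p up to 0.0622), and for Lif in 5 of 12 fits without a sample (0.64 to 0.75, adjusted p up to 0.0746), those without replicate 2 or 3 of the 2-kPa elastic, replicate 3 of the 2-kPa viscoelastic, or replicate 1 or 3 of the 20-kPa viscoelastic gels. Across the diagonal, 20-kPa viscoelastic against 2-kPa elastic gels gave 5 calls, all higher (Ccl2, Ccl7, Cxcl5, Cxcl12 and Il6). Here 31.4% of all 14542 genes were called in either direction, with 2313 genes higher. The Cxcl12 call (0.28, adjusted p = 0.0188) was lost without replicate 3 of the 2-kPa elastic gels (0.24, adjusted p = 0.0727) or replicate 2 of the 20-kPa viscoelastic gels (0.21, adjusted p = 0.0908). Soft viscoelastic against stiff elastic gels gave 3 calls, all lower (Csf1, Lif and Ptgs2). There 22.8% of all 14542 genes were called in either direction, with 1513 genes higher. Comparisons that have a group in common, such as the 2-kPa elastic gels, are not independent of each other.

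**Figure D2:**
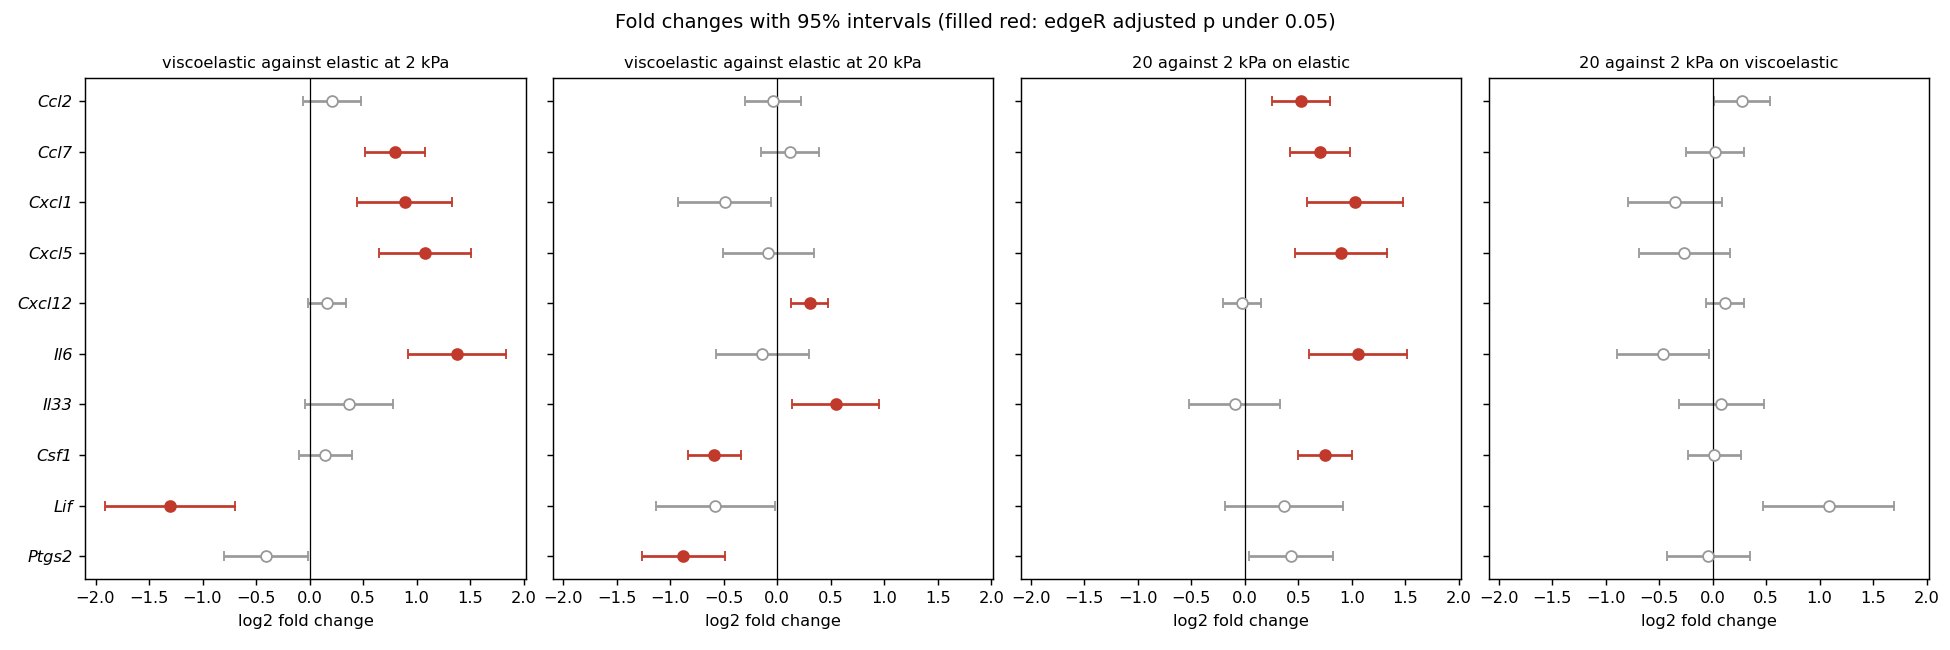
Log2 fold changes of the 10 genes with 95% intervals in 4 comparisons of the gel groups, with filled red points where the edgeR adjusted p was under 0.05. Filled points number 5, 4, 6 and 0 from left to right, and Il6 shows the largest rise at 2 kPa (1.38).

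Il6 had the largest log2 fold change of the 10 genes with viscoelasticity at 2 kPa. Its levels were 5.26, 9.40 and 7.47 CPM in replicates 1, 2 and 3 on 2-kPa elastic gels and 18.8, 13.9 and 13.2 CPM on 20-kPa elastic gels. They were 15.8, 23.3 and 18.4 CPM on 2-kPa viscoelastic gels and 12.2, 17.9 and 11.5 CPM on 20-kPa viscoelastic gels. All 9 samples of the other groups thus lay above the 3 soft elastic samples, and those 9 overlapped among themselves. Viscoelasticity at 2 kPa gave a log2 fold change of 1.38 (SE 0.21, adjusted p = 0.000616), or 2.60-fold with a 95% interval of 1.90 to 3.56. Stiffness on elastic gels gave 1.05 (SE 0.21, adjusted p = 0.00496). At 20 kPa viscoelasticity gave −0.14 (95% interval −0.57 to 0.29, adjusted p = 0.631). In the order of means, 2 kPa Viscoelastic (19.2 CPM), 20 kPa Elastic (15.3), 20 kPa Viscoelastic (13.9) and 2 kPa Elastic (7.38), only the last step was called (0.91, adjusted p = 0.00538).

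The chemokines of neutrophils, Cxcl1 and Cxcl5, had their lowest levels on the same gels. Cxcl1 measured 20.6, 24.7 and 22.6 CPM on 2-kPa elastic gels and 58.3, 30.1 and 50.2 CPM on 20-kPa elastic gels. On viscoelastic gels it measured 37.0, 51.3 and 37.4 CPM at 2 kPa and 26.0, 41.6 and 30.9 CPM at 20 kPa. No soft elastic sample reached the lowest sample elsewhere (26.0 CPM), whereas the stiff elastic samples were spread so widely that they overlapped both viscoelastic groups. Cxcl1 was higher by 0.89 (SE 0.21, adjusted p = 0.00847) with viscoelasticity at 2 kPa and by 1.03 (SE 0.21, adjusted p = 0.00483) with stiffness on elastic gels. At 20 kPa the viscoelastic value was −0.49 (95% interval −0.93 to −0.06, adjusted p = 0.0770), which was called without replicate 2 of the 20-kPa elastic gels (−0.72, adjusted p = 0.00729) or without replicate 2 of the 20-kPa viscoelastic gels (−0.70, adjusted p = 0.0259), and was −0.31 (adjusted p = 0.284) without replicate 1 of the 20-kPa elastic gels. The mean viscoelastic effect on Cxcl1 was 0.20 (95% interval −0.11 to 0.51, adjusted p = 0.299).

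Cxcl5 measured 80.0, 128 and 109 CPM on 2-kPa elastic gels and 227, 186 and 177 CPM on 20-kPa elastic gels. With viscoelastic gels the samples measured 243, 271 and 155 CPM at 2 kPa and 154, 234 and 169 CPM at 20 kPa. Again the 3 soft elastic samples lay below all 9 others. Soft viscoelastic gels exceeded soft elastic gels 2.11-fold (log2 1.08, SE 0.20, adjusted p = 0.00219). Stiff elastic gels exceeded them 1.86-fold (log2 0.90, SE 0.20, adjusted p = 0.00893), and stiff viscoelastic gels 1.76-fold (log2 0.81, adjusted p = 0.00713). Among the 3 higher groups no pair was called, with log2 differences of −0.27 to 0.18. Cxcl1 and Cxcl5 lie 129616 bases apart on chromosome 5 (Cxcl5 chr5:90759360-90761624, Cxcl1 chr5:90891241-90893115, mm10).

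The monocyte chemokines Ccl2 and Ccl7 are neighbours on chromosome 11, 8258 bases apart (chr11:82035571-82037453 and chr11:82045712-82047525, mm10), and did not show the same call on soft gels. Ccl7 measured 11.9, 13 and 11.3 CPM on 2-kPa elastic gels and 22.8, 17.2 and 19.0 CPM on 20-kPa elastic gels. Viscoelastic samples measured 20.8, 23.6 and 18.8 CPM at 2 kPa and 18.7, 26.0 and 19.4 CPM at 20 kPa. The soft elastic samples stood apart below the rest, from which they differed by 0.80 (2 kPa Viscoelastic, SE 0.13, adjusted p = 0.00094), 0.70 (20 kPa Elastic, SE 0.13, adjusted p = 0.00285) and 0.82 (20 kPa Viscoelastic, SE 0.13, adjusted p = 0.000398) on the log2 scale. Ccl7 did not pass the test between any pair of the 3 higher groups, with differences of 0.02 to 0.12.

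For Ccl2 the 2-kPa elastic samples were the tightest group, at 12.8, 13.2 and 12.7 CPM, and the 20-kPa elastic samples measured 20.8, 14.9 and 20.0 CPM. On viscoelastic gels Ccl2 measured 14.1, 17.6 and 13.1 CPM at 2 kPa and 17.4, 20.1 and 16.5 CPM at 20 kPa. Ccl2 was higher at 20 than at 2 kPa on elastic gels by 0.52 (SE 0.13, adjusted p = 0.0126), although the adjusted p became 0.0570 without replicate 3 of the 20-kPa elastic gels (0.47). The step on viscoelastic gels was 0.27 (95% interval 0.01 to 0.54, adjusted p = 0.245). The mean stiffness effect was 0.40 (SE 0.09, adjusted p = 0.0138) and the mean viscoelastic effect 0.09 (95% interval −0.10 to 0.28, adjusted p = 0.467). Soft viscoelastic gels differed from soft elastic gels by 0.21 (95% interval −0.06 to 0.48, adjusted p = 0.261), and the difference between Ccl2 and Ccl7 was not tested. Ccl2 overlaps the protein-coding gene Gm17268 on the other strand, and the exons of the pair were not compared.

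Cxcl12, the most counted of the 10, varied least. Its levels were 470, 472 and 436 CPM on 2-kPa elastic gels and 503, 449 and 400 CPM on 20-kPa elastic gels. They were 514, 508 and 520 CPM on 2-kPa viscoelastic gels and 523, 610 and 536 CPM on 20-kPa viscoelastic gels. Every viscoelastic sample lay above every elastic sample of the same stiffness, and above all 6 elastic samples (highest 503 CPM). At 20 kPa the difference was 0.30 (SE 0.08, adjusted p = 0.0109), which fell to 0.23 without replicate 3 of the 20-kPa elastic gels (adjusted p = 0.0604) and to 0.23 without replicate 2 of the 20-kPa viscoelastic gels (adjusted p = 0.0559). At 2 kPa it was 0.16 (95% interval −0.01 to 0.34, adjusted p = 0.177), and on average 0.23 (SE 0.06, adjusted p = 0.00527), or 17.5% higher. Stiffness gave −0.03 on elastic gels (95% interval −0.20 to 0.15, adjusted p = 0.863) and 0.11 on viscoelastic gels (95% interval −0.06 to 0.29, adjusted p = 0.481).

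Il33 stood at 1.79, 2.47 and 1.76 CPM on 2-kPa elastic gels and 1.47, 1.98 and 2.19 CPM on 20-kPa elastic gels. Viscoelastic gels gave 2.66, 2.31 and 2.82 CPM at 2 kPa and 2.41, 3.39 and 2.43 CPM at 20 kPa. At 20 kPa all viscoelastic samples exceeded all elastic ones, by 0.55 (SE 0.19, adjusted p = 0.0395), while at 2 kPa the highest elastic sample lay within the viscoelastic range (0.37, 95% interval −0.04 to 0.78, adjusted p = 0.191). The call at 20 kPa did not survive the loss of replicate 1 of the 20-kPa elastic gels (0.38, adjusted p = 0.165), of their replicate 2 (0.59, adjusted p = 0.0713) or of replicate 2 of the 20-kPa viscoelastic gels (0.36, adjusted p = 0.194). The mean viscoelastic effect was 0.46 (SE 0.14, adjusted p = 0.0148) and remained called without any 1 of the 12 samples, with a highest adjusted p of 0.0437. For stiffness Il33 gave a mean effect of −0.01 (95% interval −0.30 to 0.28, adjusted p = 0.981).

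Csf1, Lif and Ptgs2 were the genes with a negative mean viscoelastic effect, and all 3 had their highest group mean on 20-kPa elastic gels, as Ccl2 and Cxcl1 did. Csf1 measured 325, 303 and 273 CPM on 2-kPa elastic gels and 437, 449 and 630 CPM on 20-kPa elastic gels. It measured 341, 346 and 309 CPM on 2-kPa viscoelastic gels and 324, 366 and 319 CPM on 20-kPa viscoelastic gels. The 3 stiff elastic samples exceeded all 9 others, and the other 3 groups overlapped. Csf1 was higher at 20 than at 2 kPa on elastic gels by 0.75 (SE 0.12, adjusted p = 0.000863), or 1.68-fold with a 95% interval of 1.42 to 2.00. At 20 kPa on viscoelastic gels it fell by 33.5% (log2 −0.59, SE 0.12, adjusted p = 0.00172). Without the high replicate 3 these values were 0.56 (adjusted p = 0.00141) and −0.40 (adjusted p = 0.00534). The 2-kPa difference was 0.15 (95% interval −0.10 to 0.40, adjusted p = 0.405) and the stiffness step on viscoelastic gels 0.02 (95% interval −0.23 to 0.27, adjusted p = 0.958). The mean viscoelastic effect of −0.22 (adjusted p = 0.0449) was −0.13 without that replicate (adjusted p = 0.107) and was no longer called in 7 of the 12 fits that leave out a sample. The other 6 lacked replicate 1 or 2 of the 2-kPa elastic, replicate 1 or 3 of the 2-kPa viscoelastic, or replicate 1 or 3 of the 20-kPa viscoelastic gels (−0.23 to −0.19, adjusted p of 0.0519 to 0.110). Csf1 lies at chr3:107741048-107760469 (mm10, - strand).

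Lif measured 12.8, 8.69 and 8.73 CPM on 2-kPa elastic gels and 11.3, 7.71 and 20.0 CPM on 20-kPa elastic gels. On viscoelastic gels it measured 3.81, 4.78 and 3.70 CPM at 2 kPa and 10.6, 7.39 and 8.08 CPM at 20 kPa. The 3 soft viscoelastic samples lay below all 9 others, and the other 3 groups overlapped. At 2 kPa Lif on viscoelastic gels fell by 59.4% (log2 −1.30, SE 0.28, adjusted p = 0.00559). At 20 kPa the viscoelastic value was −0.58 (95% interval −1.14 to −0.02, adjusted p = 0.101). It was −0.13 (adjusted p = 0.682) without replicate 3 of the 20-kPa elastic gels and −0.85 (adjusted p = 0.0142) without their replicate 2. Against 20-kPa elastic gels the 2-kPa viscoelastic level fell by 68.4% (log2 −1.66, SE 0.28, adjusted p = 0.00116), and without replicate 3 of the former the log2 value was −1.21 (adjusted p = 0.00331). On viscoelastic gels stiffness gave 1.09 (SE 0.29, adjusted p = 0.0587). This value was called without replicate 2 of the 20-kPa elastic gels (adjusted p = 0.0402) or without replicate 3 (adjusted p = 0.0165), samples that enter it only through the shared spread. On elastic gels the step was 0.36 (95% interval −0.19 to 0.92, adjusted p = 0.384) with replicate 3 and −0.09 (adjusted p = 0.865) without it. The interaction of Lif, 0.72 (95% interval −0.10 to 1.54, adjusted p = 0.293), was the largest positive value of the 10 and became 1.17 (adjusted p = 0.0247) without replicate 3.

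Ptgs2 measured 435, 463 and 444 CPM on 2-kPa elastic gels and 481, 486 and 842 CPM on 20-kPa elastic gels. The viscoelastic samples measured 358, 396 and 259 CPM at 2 kPa and 316, 363 and 307 CPM at 20 kPa, so that all 6 lay below all 6 elastic samples. At 20 kPa the difference was −0.88 (SE 0.18, adjusted p = 0.00236), so that Ptgs2 fell by 45.5%, and without replicate 3 of the elastic gels −0.56 (adjusted p = 0.00816). At 2 kPa it was −0.41 (95% interval −0.80 to −0.02, adjusted p = 0.130), and −0.41 with an adjusted p of 0.0247 without the same sample, which changes the shared spread. The mean viscoelastic effect was −0.64 (SE 0.13, adjusted p = 0.00135), and −0.48 (adjusted p = 0.000984) without replicate 3. Stiffness gave 0.43 on elastic gels (95% interval 0.04 to 0.82, adjusted p = 0.132), and 0.11 without replicate 3 (adjusted p = 0.689). On viscoelastic gels stiffness gave −0.04 (95% interval −0.43 to 0.35, adjusted p = 0.932). Soft viscoelastic gels set against 20-kPa elastic gels gave −0.84 (adjusted p = 0.00549) with replicate 3 and −0.52 (adjusted p = 0.0234) without it.

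Whether stiffness acted alike on the 2 gel types was tested as an interaction, which subtracts the effect of stiffness on elastic gels from its effect on viscoelastic ones. For 5 of the 10 genes this was called, and all 5 values were negative, where 7.56% of all genes were called in either direction. Il6 gave −1.52 (95% interval −2.15 to −0.89, adjusted p = 0.00569), Cxcl1 −1.38 (−2.01 to −0.76, adjusted p = 0.0101) and Cxcl5 −1.16 (−1.77 to −0.56, adjusted p = 0.0220). Csf1 gave −0.73 (−1.09 to −0.38, adjusted p = 0.0139) and Ccl7 −0.68 (−1.07 to −0.29, adjusted p = 0.0346). The same number is the viscoelastic effect at 20 kPa minus that at 2 kPa, so these 5 genes had a viscoelastic effect that was less positive or more negative on stiff gels. The Il6, Cxcl1 and Csf1 calls held without any 1 of the 12 samples. Ccl7 lost its call in 8 of those 12 fits (adjusted p up to 0.0879) and Cxcl5 in 4 (adjusted p up to 0.0594), with log2 values from −0.85 to −0.58 and from −1.37 to −0.998 over all 12. The Ccl7 call was lost without replicate 1 or 3 of the 2-kPa elastic, the 20-kPa elastic or the 20-kPa viscoelastic gels, and without replicate 1 or 2 of the 2-kPa viscoelastic gels. The Cxcl5 call was lost without replicate 1 of the 2-kPa elastic or 2-kPa viscoelastic gels, and without replicate 1 or 3 of the 20-kPa viscoelastic gels. Among the other 5 genes the interaction ran from −0.47 for Ptgs2 to 0.72 for Lif, and their 95% intervals all included 0.

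**Figure D3:**
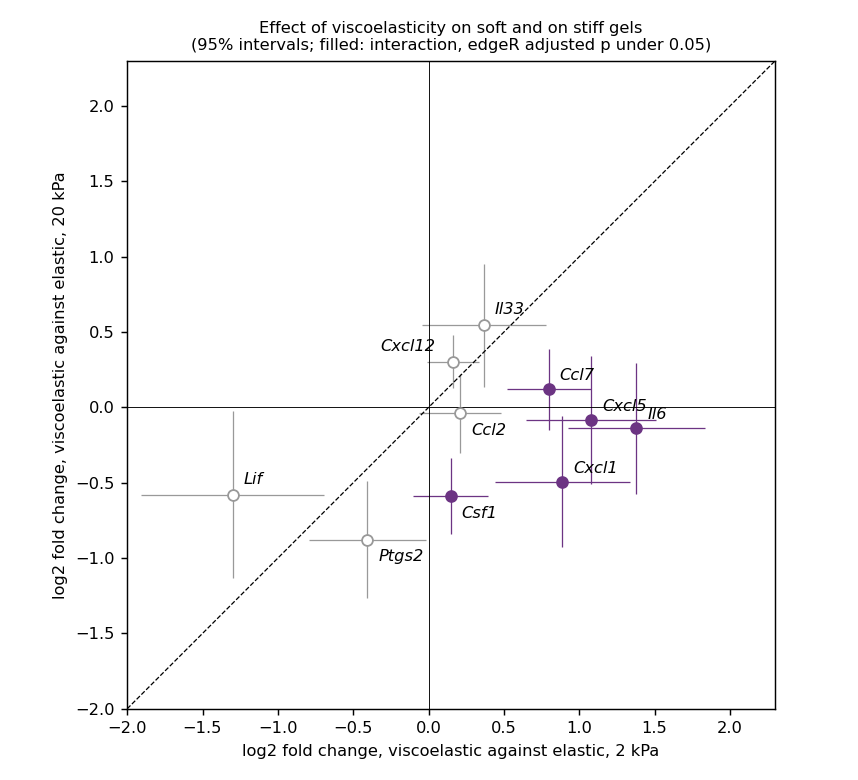
The log2 fold change of viscoelastic against elastic gels at 20 kPa (vertical) is plotted against that at 2 kPa (horizontal) for the 10 genes, with 95% intervals, the line of equal effects dashed, and filled points where the interaction had an adjusted p under 0.05. The 5 filled points (Ccl7, Cxcl1, Cxcl5, Il6 and Csf1) lie below the dashed line.

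Replicates of a group moved together across several of the genes, so the 10 are not independent readings. In the 2-kPa viscoelastic and the 20-kPa viscoelastic group, replicate 2 had the highest level for 8 and 9 of the 10 genes, and in the 2-kPa elastic group replicate 2 had the highest for 8. On 20-kPa elastic gels replicate 1 was highest for Ccl2, Ccl7, Cxcl1, Cxcl5, Cxcl12 and Il6, and replicate 3 for Il33, Csf1, Lif and Ptgs2. Replicates of a group differed by 11.2 to 55.5 times the variance of counting alone, so none was a repeat of another library.

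**Figure D4:**
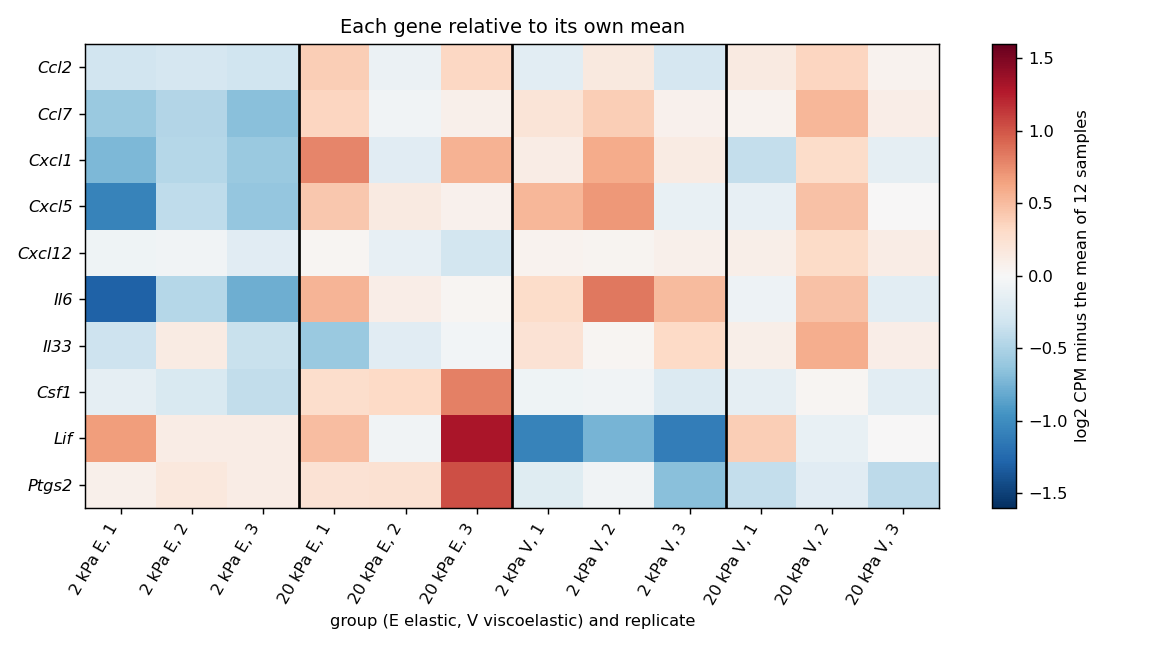
Colours give log2 CPM minus the mean of the 12 samples for each gene (rows) in each sample (columns, by group and replicate), from blue (lower) to red (higher). The 3 soft elastic columns are blue for Ccl7, Cxcl1, Cxcl5 and Il6, the 3 soft viscoelastic columns are blue for Lif, and replicate 3 of the 20-kPa elastic gels is red for Csf1, Lif and Ptgs2.

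For each of the 9 genes with a difference among groups, the tested genes with the most similar log2 CPM over the 12 samples were listed, as a description without a test, since the 12 samples are the same for all genes. Ptgs2 was closest to Pla2g4a (r = 0.983), which releases the fatty acid that Ptgs2 oxidizes, then to Magt1 (0.972) and to Inhba (0.962), an activin subunit. Il6 was closest to Fstl1 (0.973), with Slc43a3 (0.965) also near, and Cxcl5 to Fstl1 (0.961), Sema3d (0.958) and Crem (0.937). Cxcl1 was nearest to Fam20a (0.976), Loxl2 (0.944) and Ms4a4d (0.913), and Ccl7 to St3gal5 (0.972), the matrix protease Adamts5 (0.971) and Pgpep1l (0.960). Ms4a4d and Pgpep1l were low, with means of 0.3355 and 1.075 CPM. The nearest for Ccl2 were Manf (0.949), Apbb1ip (0.925) and Actb (0.914). Csf1 had Rgs16 (0.968), Akap12 (0.956) and Capn2 (0.953), Lif had Tuba4a (0.957), Minpp1 (0.940) and Tubb4b (0.939), and Cxcl12 had Elobl (0.964), Nmi (0.960) and Selenop (0.951).

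Other chemokine ligands were searched for the same pattern. Of 32 listed, 15 could be tested, and 17 had too few counts, Ccl5 and Ccl17 reaching at most 11 counts in a sample. At 2 kPa, 6 of the 15 were called, 4 higher and 2 lower on viscoelastic gels, against 19.9% of all genes. Cx3cl1, a membrane-bound chemokine, was the most significant, at 104 CPM on elastic and 49.2 CPM on viscoelastic gels (−1.09, adjusted p = 3.26e-05). Cxcl3 rose (1.04, adjusted p = 0.00476), as did Cxcl15 (1.61, adjusted p = 0.00541) and Ccl6 (0.60, adjusted p = 0.0381), while Ccl8 fell (−1.85, adjusted p = 0.00353). At 20 kPa, 9 were called, 4 higher and 5 lower, where 33.5% of all genes were called. Ppbp, a neutrophil chemokine, was lower on viscoelastic gels (9.11 against 3.76 CPM, −1.28, adjusted p = 0.000135), and so was Cxcl2 (−2.25, adjusted p = 0.00144). Ccl9 (0.74, adjusted p = 0.00014), Ccl6 (1.37, adjusted p = 0.000188) and Cxcl16 (0.52, adjusted p = 0.00566) were higher. The interaction was called for 5 of the 15, against 7.56% of all genes. It was negative for Ppbp (−1.55, adjusted p = 0.00115), Cxcl3 (−1.83, adjusted p = 0.00175) and Cxcl2 (−2.57, adjusted p = 0.0324), which are ligands of Cxcr2. It was positive for Ccl9 (0.77, adjusted p = 0.00279) and Cx3cl1 (0.68, adjusted p = 0.0171). Cxcl15, called for viscoelasticity at both stiffnesses, had no called interaction. Cxcl2, Cxcl3 and Cxcl15 were below 3 CPM in every group. Cxcl1, Cxcl2 and Cxcl3 are related in sequence, and how reads matching more than 1 place were counted is not given in the sources used here, so the division of reads among them is uncertain.

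Receptors for the 10 products were measured in the same fibroblasts. Of 19 listed, 11 could be tested, whereas Ccr2, the receptor of Ccl2 and Ccl7, had 0 counts in every sample and Cxcr2 at most 3. The interaction was called for 6 of the 11, 5 of them negative, where 7.56% of all genes were called in either direction. They included Il6st, the shared subunit for Il6 and Lif (−0.61, adjusted p = 0.00582), the Il33 receptor Il1rl1 (−0.61, adjusted p = 0.00367) and its partner Il1rap (−0.67, adjusted p = 0.00221). The prostaglandin receptor Ptger3 was the positive one (1.25, adjusted p = 0.0120). Il6st rose with viscoelasticity at 2 kPa from 1817 to 2427 CPM (0.42, adjusted p = 0.00346), and Il1rl1 was lower on viscoelastic gels at 20 kPa, 1925 against 2994 CPM (−0.64, adjusted p = 0.000119). In the interleukin-6 family list 15 of 16 genes were tested, with 4 calls at 2 kPa (1 higher) and 5 at 20 kPa (2 higher). These shares were near those of all genes, 19.9% and 33.5%. Il11 was lower on viscoelastic gels at 2 kPa (−0.81, adjusted p = 0.00574) and at 20 kPa (−0.71, adjusted p = 0.00638), and Ctf1, cardiotrophin-1, was higher (0.51, adjusted p = 0.0105, and 0.70, adjusted p = 0.00062). The transducer Stat3 gave −0.06 and −0.09 at 2 and 20 kPa and the feedback gene Socs3 0.19 and 0.10, none of which was called.

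Genes of prostaglandin synthesis and handling, the pathway of Ptgs2, were tested for 13 of 15. Averaged over both stiffnesses, 8 were called, 2 higher and 6 lower on viscoelastic gels, against 40.0% of all genes. The list median was −0.21. At 20 kPa, 5 were called, against 33.5% of all genes. The constitutive cyclooxygenase Ptgs1 was lower (124 against 63.8 CPM, −0.95, adjusted p = 0.000197), as were the phospholipase Pla2g4a (−0.38, adjusted p = 0.00309) and the prostaglandin importer Slco2a1 (68.7 against 30.5 CPM, −1.17, adjusted p = 0.000122). The prostaglandin-degrading enzyme Hpgd was higher (1.12, adjusted p = 0.000399, at 1.56 against 3.41 CPM), and so was the carbonyl reductase Cbr1 (0.45, adjusted p = 0.000281). At 2 kPa 5 were called, 2 higher and 3 lower, against 19.9% of all genes. The prostacyclin synthase Ptgis (0.28, adjusted p = 0.00517) and Hpgd (0.71, adjusted p = 0.0137) were higher. Ptgs1 (−0.50, adjusted p = 0.0161), the exporter Abcc4 (−0.26, adjusted p = 0.0380) and Ptges2 (−0.23, adjusted p = 0.0469) were lower. Pla2g4a gave −0.22 there (adjusted p = 0.0675). Slco2a1 was higher at 20 than at 2 kPa on elastic gels (1.17, adjusted p = 0.00019), and its interaction was −1.44 (adjusted p = 0.000746).

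**Figure D5:**
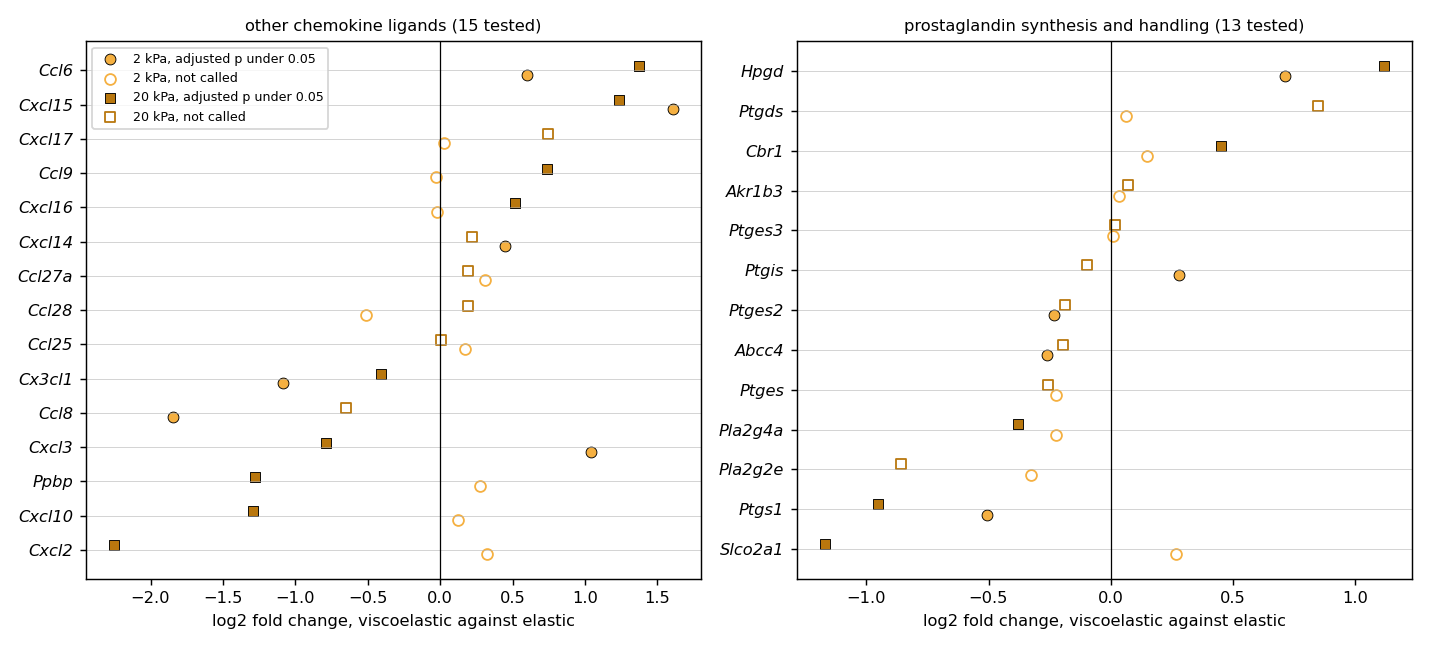
Log2 fold changes of viscoelastic against elastic gels at 2 kPa (circles) and 20 kPa (squares) for the 15 tested other chemokine ligands and the 13 tested prostaglandin genes, filled where the edgeR adjusted p was under 0.05. Filled squares number 9 and 5 (33.5% of all genes were called at 20 kPa), and the lowest is Cxcl2 (−2.25).

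All 19 listed NF-kappaB subunits, inhibitors and targets were tested, with 5 called at 2 kPa (3 higher, 2 lower) and 9 at 20 kPa (3 higher, 6 lower). The shares of all genes called were 19.9% and 33.5%, and the list medians were −0.07 and 0.01. The 5 called at 2 kPa were, by lowest adjusted p, Vcam1, Ikbkg, Nfkbiz, Tnfaip3 and Ikbkb. The feedback inhibitor Nfkbia was lower on viscoelastic gels at 20 kPa (39.2 against 23.4 CPM, −0.75, adjusted p = 0.00172), and so were Nfkbiz (−0.67, adjusted p = 0.00365) and Tnfaip3 (−0.56, adjusted p = 0.00644). Vcam1 (0.27, adjusted p = 0.00907) and Tnip1 (0.27, adjusted p = 0.0109) were higher. Nfkbiz, a cofactor for Il6 induction, had levels of 34.1 CPM on 2-kPa elastic, 59.3 on 20-kPa elastic, 49.5 on 2-kPa viscoelastic and 37.3 on 20-kPa viscoelastic gels, with an interaction of −1.21 (adjusted p = 0.00294). Vcam1 was the other of the 2 genes with a called interaction (0.53, adjusted p = 0.00449), which 7.56% of all genes had. Among the inputs to this pathway 13 of 16 were tested, and Il1a, Il1b and Tnf were not, with at most 7, 0 and 3 counts in a sample. The list gave 3 calls at 2 kPa and 5 at 20 kPa, shares near the 19.9% and 33.5% of all genes. At 20 kPa Il18 was higher (0.70, adjusted p = 0.00257) and Tlr4 lower (−0.35, adjusted p = 0.00385). Of 5 other colony-stimulating and related growth factors 3 were tested. In the 4 pairs of neighbouring groups, where 2.28% to 33.5% of all genes were called, edgeR called 0 of these 3. At an unadjusted p under 0.05 there was 1, for stiffness on elastic gels, and DESeq2 called 0.

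Behind the coding sequence, the AU-rich pentamer ATTTA was counted in the annotated transcripts. Il6 carried 14.1 copies per kb and Cxcl1 11.8, at percentiles 99.8 and 99.6 of 12360 genes, whose median was 1.34 per kb. Ptgs2 followed with 5.73 per kb, Ccl7 with 4.60, Cxcl5 with 4.50 and Ccl2 with 3.64. Lif (2.20), Csf1 (1.90), Il33 (1.79) and Cxcl12 (0.771) carried fewer, and the longer TATTTAT was present in 7 of the 10 genes and in 29.5% of all genes. The 2 densest genes, Il6 and Cxcl1, were also the 2 with the largest negative interactions, which is a description of 10 genes. Ptgs2, next in density, had no called interaction, and Csf1, with 1.90 per kb, had one. TATTTAT occurred 6 times in Cxcl1 and in Ptgs2 and 5 times in Lif, whose interaction was positive (0.72, not called). Il6, Cxcl5, Cxcl12 and Csf1 had 1 copy each. A link between these motifs and the interactions was not tested. Of 11 regulators of the decay of such mRNAs, all tested, 1 was called at 20 kPa (Zfp36l1, 0.37, adjusted p = 0.00137), against 33.5% of all genes. At 2 kPa edgeR called 0, against 19.9% of all genes, with 1 at an unadjusted p under 0.05 and 1 by DESeq2.

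The samples had the markers of fibroblasts, whose 10 listed genes summed to 23740 to 29360 CPM. Of 15 leukocyte markers 6 could be tested and they summed to 8.73 to 13.7 CPM, led by Cd68 and Cd14. The defining markers Ptprc (at most 24 counts), Adgre1 (at most 8) and Tyrobp (at most 3) were near 0, and Cpa3 was at 0. Endothelial markers (5 of 7 tested), led by Tek and Kdr, summed to 2.28 to 2.55 CPM on 2-kPa elastic, 3.40 to 3.48 on 20-kPa elastic, 3.17 to 3.69 on 2-kPa viscoelastic and 2.27 to 2.87 CPM on 20-kPa viscoelastic gels. The soft elastic samples had the lowest median of this sum. At 2 kPa Tek and Kdr were the 2 called, both higher on viscoelastic gels (19.9% of all genes were called). The median log2 fold change of the 5 tested markers was −0.43 there. Keratinocyte (4 of 9 tested), melanocyte (2 of 6) and skeletal muscle (1 of 6) markers summed to at most 14.4 CPM, with Tyr and Myf5 at 0. Cartilage markers were high, 6 of 7 tested, and led by Col2a1 and Acan. They summed to 4665 to 4765 CPM on 20-kPa elastic gels, below the 5107 to 6765 CPM of the other 3 groups. The sum of the Schwann markers, 5 of 5 tested and led by S100b, was also lowest there, at 45.7 to 49.5 CPM, against 76.4 to 77.2 on 2-kPa elastic, 55.7 to 64.9 on 2-kPa viscoelastic and 73.7 to 95.7 CPM on 20-kPa viscoelastic gels. S100b was the only 1 of the 5 called for stiffness on elastic gels (lower, list median 0.00, 14.0% of all genes called). It was also the only 1 called for viscoelasticity at 20 kPa (higher, list median 0.10, 33.5% of all genes called). In the 20-kPa elastic group Ccl2, Cxcl1, Csf1, Lif and Ptgs2 had their highest means. The part of these marker levels in the results was not tested. In such bulk samples fewer cells of a type and less RNA per cell cannot be told apart.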

How the data were processed

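RNA-seq was analysed from 12 samples of mouse ear fibroblasts, 3 in each of 4 gel groups named by their labels. Per the labels and the study's methods, the authors used Trimmomatic for trimming, STAR for alignment to mm10 and featureCounts with GENCODE genes for counting. The deposited values are raw counts by gene symbol, without normalization. The annotation release, the strand setting and the treatment of reads with several matches are not given in the sources used here. The test was that of edgeR 4.0.16 (R 4.3.3). Of 33246 genes, 10097 had no count, and 14542 passed edgeR's expression filter (filterByExpr, given the 4 groups, count 10 and total 15). Libraries were scaled by TMM (factors 0.968 to 1.03), and all 12 samples entered a single quasi-likelihood fit in which each group had its own coefficient. P-values were adjusted by Benjamini-Hochberg over the tested genes and called under 0.05. Intervals are 95% and come from the fitted SE. CPM values are TMM-normalized, with a prior count of 2 on the log2 scale. The fit was tested on simulated data. Exon lengths, positions and sequences behind the coding region came from GENCODE M21, and promoters from RefSeq.

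Depth was 36626221 to 43612804 counts per sample. At edgeR's common dispersion (biological coefficient of variation 7.50%), counting noise exceeds the replicate spread below 178 counts. A gene was to be named too low if it failed the filter or averaged under 10 counts.

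The 10 genes, the pathway and marker lists and the tests were chosen with earlier results of these data known. The text names all 10 genes, up to 5 listed genes per list that passed a comparison by lowest adjusted p, defining markers near 0, and the 3 genes closest in pattern to each of the 9 genes that differed among groups (1 of these closest genes is not reported here). Listed genes with few or no counts, and Stat3 and Socs3, were named after their values were seen. Alternatives were DESeq2 1.42.0 (its size factors in edgeR, and its Wald test), total counts alone, every gene with a count, a replicate block, the compared groups alone, an adjusted p under 0.01, and leaving out each sample. The ATAC-seq and other assays of the study were not used here.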

Additional observations from a re-analysis of the deposited data

Results flagged for a closer look

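The stiffness effect on viscoelastic gels differed from that on elastic gels for 5 of the 10 genes by the interaction test of the edgeR fit. All 5 values were negative, where 7.56% of all genes were called in either direction. The log2 difference was −1.52 for Il6 (adjusted p = 0.00569), −1.38 for Cxcl1 (adjusted p = 0.0101), −1.16 for Cxcl5 (adjusted p = 0.0220), −0.73 for Csf1 (adjusted p = 0.0139) and −0.68 for Ccl7 (adjusted p = 0.0346). Groups of 3 samples are too small for the check of single high or low samples, so the high replicate 3 of the 20-kPa elastic gels for Csf1, Lif and Ptgs2 was judged only by leaving it out.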

How the results depend on the processing

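Over the alternatives, the 40 called values of single genes gave 703 recomputed values, of which 703 kept their direction and 665 their call. Many of these refits left out a sample outside the compared groups, which hardly moves the log2 value. Ccl7 at 2 kPa, for example, gave 0.7986 without replicate 3 of the 20-kPa elastic gels, against 0.799. The count of kept directions is therefore no measure of robustness. At an adjusted p under 0.01 the calls fell to 2 for viscoelasticity at 20 kPa (Csf1 and Ptgs2), 5 for the mean viscoelastic effect, 0 for the mean stiffness effect and 1 for the interaction (Il6). For stiffness on viscoelastic gels, edgeR's 0 calls became 2 with every counted gene (Il6 and Lif), 1 with DESeq2, 1 with the compared groups alone (Lif in both) and 0 to 1 without single samples. Every counted gene also added Ptgs2 at 2 kPa (adjusted p = 0.0137) and for stiffness on elastic gels (adjusted p = 0.00834), and Cxcl1 (adjusted p = 0.00245) and Lif (adjusted p = 0.00653) at 20 kPa, and gave 7 calls for 20-kPa viscoelastic against 2-kPa elastic gels, 4 for 2-kPa viscoelastic against 20-kPa elastic gels, 6 for mean stiffness and 10 for any difference. Leaving out a sample gave 2 to 5 calls for the mean stiffness effect (Ccl7 and Lif lost without replicate 3 of the 2-kPa elastic or 2-kPa viscoelastic gels) and 3 to 5 for the interaction. Signs turned only for values that were not called. Leaving out single samples gave −0.175 to 0.0339 for Ccl2, −0.0473 to 0.224 for Ccl7, −0.285 to 0.0337 for Cxcl5 and −0.365 to 0.0215 for Il6 (viscoelasticity at 20 kPa). It gave −0.0969 to 0.0508 for Cxcl12, −0.216 to 0.0859 for Il33 and −0.0859 to 0.634 for Lif (stiffness on elastic gels), and −0.143 to 0.112 for Ccl7, −0.0996 to 0.168 for Il33, −0.0481 to 0.0525 for Csf1 and −0.199 to 0.0895 for Ptgs2 (stiffness on viscoelastic gels). The Il33 interaction ran from −0.00467 to 0.298. With the compared groups alone, Csf1 gave −0.000452 for stiffness on viscoelastic gels, and Il33 lost its call at 20 kPa (adjusted p = 0.0563). Csf1 lost its mean viscoelastic call with total counts alone (adjusted p = 0.0728). Where no construction shows it, the cause was not tested.

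The labels number replicates 1 to 3 in each group. Deviations from the group means correlated at −0.20 to 0.31 over the 18 pairs with the same number, and no 2 groups had all 3 pairs over 0.1, so the numbers were not taken to pair samples. A replicate block in the fit gave the mean viscoelastic effect 7 calls in place of 8, since Csf1 gave −0.22 with an adjusted p of 0.0687, and the block changed no other call. Counting error was largest for Il33 (10.2%), whose counts stay below 178, and Lif averaged 172 counts on 2-kPa viscoelastic gels. The 178 counts rest on the common dispersion. By their own dispersions the biological coefficient of variation was 13.3% for Il33 and 21.9% for Lif.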
